A study of Mus musculus with 2 samples.

Results

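The secretory route of collagen was followed through 40 genes, of 32285 in the matrices, that encode the folding and secretion machinery of the endoplasmic reticulum (ER). They were taken by gene symbol, and all 40 were found. By role they fall into 9 collagen helpers, 13 general chaperones and folding enzymes, 5 stress genes, 5 translocon genes, 6 genes of export and retrieval, and 2 transcription factors of secretory cells. The cells came from the lungs of 8- to 10-week-old mice of the genotype Lepr-CreERT2;Rosa26-tdtomato, in which a tamoxifen-dependent Cre driven by the leptin receptor gene switches on tdTomato in cells that express it and in their descendants. When Cre was induced is not given in the sources used here. One library was made after saline and 1 after bleomycin, a drug that injures the lung and is followed by fibrosis, from live tdTomato+ cells sorted as negative for CD45, EpCAM and CD31. Both libraries share the genotype, the reporter and the sort; neither the number of mice in a library nor the day of collection is given in the sources used here.

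Fibrillar collagen is made as a procollagen chain that enters the ER through the translocon, is hydroxylated on prolines and lysines, is kept in step by prolyl isomerases and, as the triple helix forms, is bound by HSP47, a chaperone dedicated to collagen that is released after export from the ER. The finished trimer is too long for an ordinary transport vesicle and leaves with the help of TANGO1 at exit sites coated by COPII. General ER chaperones such as BiP serve secreted proteins of every kind and, when unfolded protein accumulates, are induced through the unfolded protein response.

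The saline library held 8396 barcodes and 60937359 UMIs (unique molecular identifiers, each standing for 1 captured RNA molecule), with a median of 6762 UMIs per barcode; the bleomycin library held 10138 barcodes and 134732429 UMIs, with a median of 11662. After filtering, 8284 saline and 10001 bleomycin cells were used, of which 8123 and 9673 were mesenchymal by their marker genes. Pdgfra, a fibroblast receptor, had a UMI in 81.2% of saline and 75.1% of bleomycin cells, and Lepr itself in 28.7% and 11.3%. Ptprc, Epcam and Pecam1, the genes of the sort's negative markers, had a UMI in at most 1.39% of the cells of either library. The libraries shared 25 barcodes. With 1 library per group no test between conditions was possible: intervals below are 95%, cover counting error only, and compare these 2 libraries rather than the treatments. A member was called higher or lower where its level, in counts per 1000000 UMIs (CPM), differed at least 2-fold between libraries, reached 10 CPM in the higher one, and the interval of the ratio excluded 1. For a sum over cells, a change in the mix of cell types and a change within cells cannot be told apart, so the same ratios are given within classes.

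Over the mesenchymal cells, 3 of the 40 members were called higher in the bleomycin library and 0 lower, beside 5.63% of 8023 genes called higher and 5.92% called lower. The share of members called higher, 3 of 40, was thus close to that of all genes. Of the 40 ratios of bleomycin to saline CPM, 32 were above 1, and their median was 1.30, beside 0.974 for all tested genes. By role the median ratio was 1.44 for the collagen helpers, 1.09 for the general chaperones, 0.970 for the stress genes, 1.52 for the translocon, 1.48 for export and retrieval and 1.61 for both transcription factors. Col1a1, a fibrillar collagen gene, went from 962.2 CPM in saline to 3798 CPM in bleomycin, a ratio of 3.95 (3.91 to 3.98). Col1a2 and Col3a1 were more abundant and had smaller ratios. Col1a2 had 1423 and 4133 CPM, a ratio of 2.91, and Col3a1 1690 and 4431 CPM, a ratio of 2.62.

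**Figure D1:**
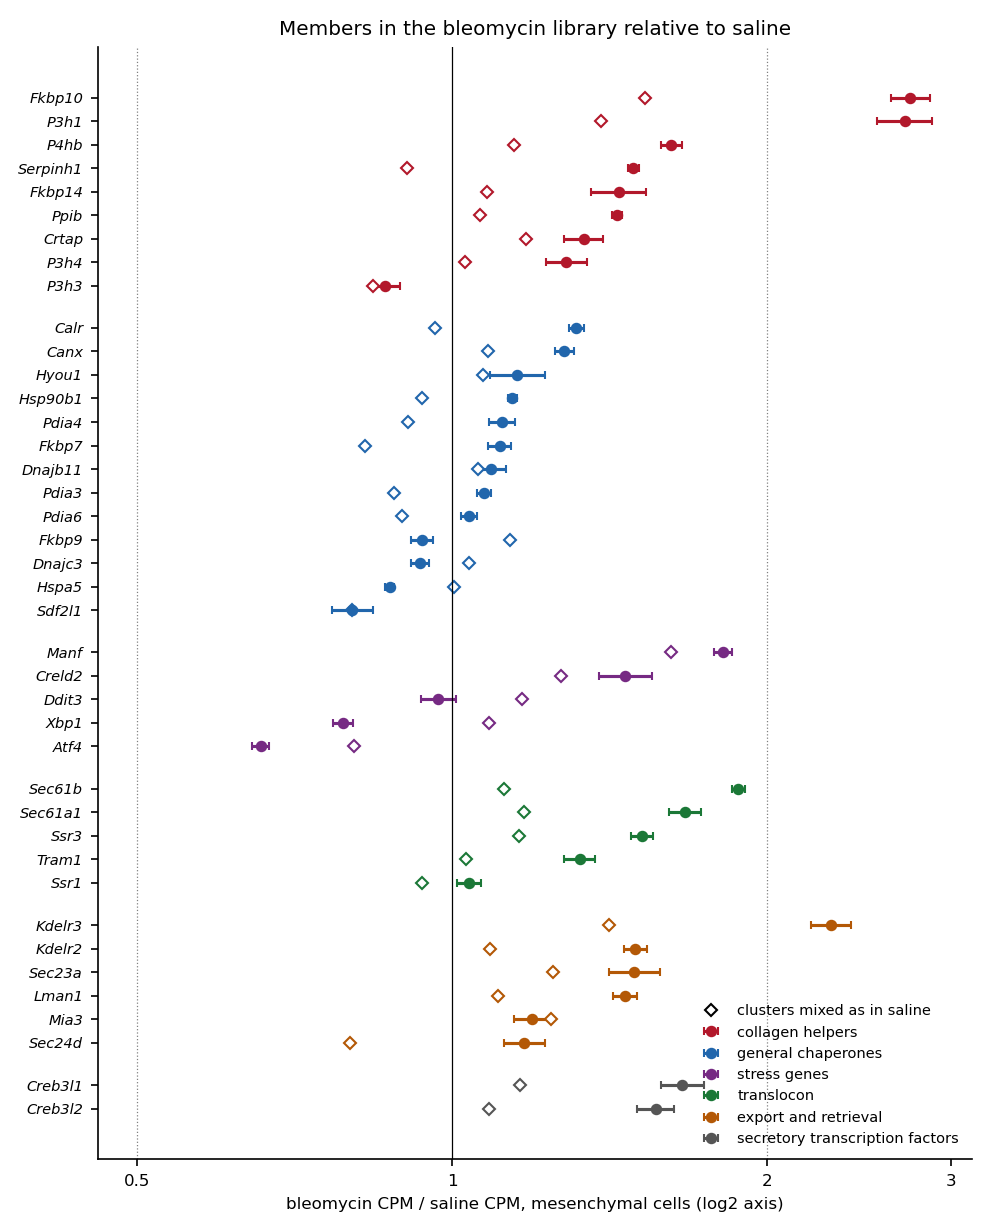
Ratio of bleomycin to saline CPM over mesenchymal cells for the 40 members, grouped by role; filled points carry 95% counting intervals and open diamonds give the ratio after the bleomycin clusters were weighted as in saline. Fkbp10, P3h1 and Kdelr3 lie past the dotted line at 2, the general chaperones cluster near 1, and most diamonds lie nearer to 1 than their points.

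Among the collagen helpers, Fkbp10 and P3h1 passed the size rule. Fkbp10 (chromosome 11, 100415697 to 100424824, GRCm38) encodes FKBP65, a prolyl isomerase of the ER needed for collagen cross-linking and mutated in a recessive form of brittle bone disease. Its level was 41.9 CPM after saline and 114.9 CPM after bleomycin, a ratio of 2.745 (2.63 to 2.87). P3h1 (chromosome 4, 119232915 to 119248975) encodes the prolyl 3-hydroxylase that acts in a complex with CRTAP and cyclophilin B. Its level was 21.1 CPM after saline and 57.1 CPM after bleomycin, a ratio of 2.71 (2.55 to 2.88). The other subunits of that complex had smaller ratios. Crtap stood at 47.7 and 63.7 CPM, a ratio of 1.34 (1.28 to 1.39). Ppib, which encodes cyclophilin B, stood at 685.5 and 984.7 CPM, a ratio of 1.44 (1.42 to 1.45). Serpinh1 (chromosome 7, 99345376 to 99353239), the gene of HSP47, had 639.9 CPM after saline and 954.1 CPM after bleomycin, a ratio of 1.49 (1.47 to 1.51). P4hb, which encodes protein disulfide isomerase, also the beta subunit of prolyl 4-hydroxylase, had 169.0 and 274.0 CPM, a ratio of 1.62 (1.59 to 1.66). Fkbp14, another ER prolyl isomerase, had 23.0 and 33.2 CPM, a ratio of 1.44, and P3h4, a scaffold of lysine hydroxylation, 42.7 and 54.9 CPM, a ratio of 1.29. P3h3, which works with P3h4, was the single helper below 1, at 102.3 CPM after saline and 88.4 CPM after bleomycin, a ratio of 0.864 (0.837 to 0.891).

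The general chaperones stayed within 1.5-fold in all 13 cases, with ratios from 0.802 for Sdf2l1 to 1.315 for Calr. Hspa5, the gene of BiP, the ER's HSP70 and the best known target of the unfolded protein response, had 978.8 CPM after saline and 852.8 CPM after bleomycin, a ratio of 0.871 (0.863 to 0.880). Hsp90b1, the ER's HSP90, had 816.8 and 932.6 CPM, a ratio of 1.14 (1.13 to 1.15). Both were among the most abundant of the 40, and their intervals lie on opposite sides of 1. Calreticulin (Calr), a lectin that folds glycoproteins, had 332.8 and 437.6 CPM, and its membrane-bound relative calnexin (Canx) 202.4 and 259.3 CPM, a ratio of 1.28. The disulfide isomerase gene Pdia3 had 389.9 and 418.7 CPM (ratio 1.07), Pdia4 111.5 and 124.4 CPM (1.12) and Pdia6 306.8 and 318.6 CPM (1.04). Dnajb11 and Dnajc3, J-domain partners of BiP, went from 90.0 to 98.0 CPM and from 265.3 to 247.2 CPM. Hyou1, an exchange factor of BiP, had 24.9 and 28.8 CPM, and Sdf2l1, a partner of Dnajb11, 50.6 and 40.6 CPM. Fkbp7 (144.1 and 160.1 CPM) and Fkbp9 (169.3 and 158.4 CPM), ER prolyl isomerases counted here as general, stayed close to their saline levels.

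The stress genes did not move together. Manf, which encodes a small secreted ER protein induced by stress, had 200.2 CPM after saline and 363.3 CPM after bleomycin, a ratio of 1.815 (1.78 to 1.85). Creld2, another ER stress protein, had 24.8 and 36.2 CPM, a ratio of 1.46 (1.38 to 1.55). Xbp1, a transcription factor of the unfolded protein response, had 193.3 and 152.0 CPM, a ratio of 0.786 (0.769 to 0.805). Atf4, the factor of the integrated stress response, had 307.4 and 201.7 CPM, a ratio of 0.656 (0.644 to 0.669), the lowest of the 40. Ddit3, the gene of CHOP, had 66.3 and 64.3 CPM, a ratio of 0.970 whose interval spans 1 (0.934 to 1.01). Total transcript counts of Xbp1 and Atf4 do not show their activity, which is set by splicing and by translation. Genes that cell dissociation is known to induce moved in the same libraries: Fos had a ratio of 0.652, Jun 0.497, Egr1 0.401, Atf3 0.428 and Hspa1a 0.535, and of the 13 such genes read, Ier3 (1.42) and Hsph1 (1.04) were above 1. Their part in the values of Atf4, Xbp1, Ddit3 and Hspa5 was not tested.

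In the unfolded protein response ATF6 and XBP1 act through an ER stress response element in promoters. The sequences below are shown because its letters were found before general chaperones. RefSeq promoter windows of build GRCm38.p6 were at hand for 31 of the 40 members, and the 250 bases before the start were searched on both strands for CCAAT followed after 9 bases by CCACG. The element was found in 7 members, 6 of 12 general chaperones with a window and Creld2 of the stress genes. It was in 0 of 7 collagen helpers, 0 of 3 translocon, 0 of 4 export and retrieval and 0 of 1 transcription factor genes. Over all genes, 35 of 27025 (0.1295%) held it, in 0.113% of 32851 windows, so absence from groups this small does not set the helpers apart. Fkbp10, P3h4, Hyou1, Manf, Sec61a1, Tram1, Kdelr2, Lman1 and Creb3l1 had no window. The runs below are read 5′ to 3′ on the strand that carries CCAAT first, with the CCAAT and CCACG of the element in capitals.
Hspa5: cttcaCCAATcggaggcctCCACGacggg
Calr: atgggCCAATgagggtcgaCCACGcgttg
Hsp90b1: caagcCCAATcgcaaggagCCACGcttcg
Canx: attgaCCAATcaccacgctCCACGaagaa
Pdia6: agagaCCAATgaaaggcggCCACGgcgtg
Dnajc3: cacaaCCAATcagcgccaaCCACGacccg
Creld2: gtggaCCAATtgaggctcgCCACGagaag
The runs lie at chr2:34772020-34772048 on the plus strand for Hspa5, chr8:84847070-84847098 on the plus strand for Calr, chr10:86705633-86705661 on the minus strand for Hsp90b1 and chr11:50325795-50325823 on the minus strand for Canx. Those of Pdia6 and Dnajc3 are at chr12:17266486-17266514 and chr14:118937822-118937850, both plus, and that of Creld2 at chr15:88819515-88819543, minus. The Hspa5 run lies inside a 5′ untranslated exon of a longer GENCODE transcript of that gene, and the other 6 touch no annotated transcript. Hsp90b1 held a further match on the opposite strand, 88 bases before its start where the printed one is at 193. In Calr and Creld2 the element reads against the direction of the gene. A match of letters is not a site of binding, and the absence of a match says only that these letters are not in the window.

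The 7 members with the element had ratios of bleomycin to saline CPM from 0.871 to 1.46, median 1.14, and the 24 members whose window lacked it had a median of 1.18. The core TGACGTGG of a second element of that response was found before the start of Kdelr3 and Sec24d, beside 0.603% of all genes and 0.563% of all windows.
Kdelr3: cgcggTGACGTGGcgggg
Sec24d: gcgccTGACGTGGcacta
The Kdelr3 run lies at chr15:79516373-79516390 on the minus strand, outside annotated transcripts, and the Sec24d run at chr3:123267465-123267482 on the plus strand, in a 5′ untranslated exon of a GENCODE transcript. These 2 genes differed in the libraries: Kdelr3 had a ratio of 2.30 and Sec24d one of 1.17. An amino acid response element (TGATGCAAT or TGATGCAAC), to which ATF4 and CHOP bind, was in the window of 0 members, beside 0.37% of all genes and 0.323% of all windows.

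At the translocon, the channel through which nascent chains enter the ER, Sec61b had 398.4 CPM after saline and 748.5 CPM after bleomycin, a ratio of 1.88 (1.85 to 1.91). Sec61a1, the pore itself, had 68.4 and 114.3 CPM (ratio 1.67), Ssr3 of the translocon-associated complex 148.9 and 226.4 CPM (1.52) and Tram1 77.1 and 102.2 CPM (1.325). Ssr1, from the same complex as Ssr3, had 138.1 and 143.4 CPM, a ratio of 1.04. All 5 were above 1, and 0 passed the size rule.

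On the way out of the ER, Kdelr3 (chromosome 15, 79516411 to 79527739) was called higher. It encodes a receptor that returns escaped ER proteins, and had 39.9 CPM after saline and 91.9 CPM after bleomycin, a ratio of 2.30 (2.20 to 2.41). Its relative Kdelr2 had 134.1 and 200.7 CPM, a ratio of 1.496 (1.46 to 1.535). The COPII coat gene Sec23a had 28.1 and 42.0 CPM, a ratio of 1.49, and the cargo receptor gene Lman1 128.0 and 187.3 CPM, a ratio of 1.46. Sec24d, the COPII subunit whose loss impairs collagen export, had 43.2 and 50.7 CPM, a ratio of 1.17 (1.12 to 1.23), and Mia3, the gene of TANGO1, 54.2 and 64.6 CPM, a ratio of 1.19 (1.145 to 1.24). Over these summed cells, the export genes named for collagen thus had the smallest ratios of the 6. With the bleomycin clusters weighted as in saline, Sec24d had 0.798 but Mia3 1.24, above Lman1 (1.11) and Kdelr2 (1.09). Creb3l1, the factor that drives Col1a1 and secretory genes in bone, had 38.2 and 63.5 CPM, a ratio of 1.66 (1.585 to 1.74), and its relative Creb3l2 49.0 and 76.8 CPM, a ratio of 1.57 (1.502 to 1.63).

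Of 94 further ER and secretory genes listed with these, 84 were expressed highly enough to be tested over mesenchymal cells, and 6 were called higher and 2 lower, beside the 5.63% and 5.92% of all genes given above; the higher count is near that share. Fkbp11, an ER prolyl isomerase, had a ratio of 4.39, Ppic, cyclophilin C, 3.06, P4ha3, a catalytic subunit of prolyl 4-hydroxylase, 8.39, and Pdia5, a disulfide isomerase, 3.17. Ostc of the oligosaccharyltransferase had a ratio of 2.41 and Asns, asparagine synthetase, a target of ATF4, 10.1 (7.77 to 13.3), from 1.02 to 10.2 CPM. Both genes called lower, Ppp1r15a (0.327) and Atf3 (0.428), are stress-response genes, and Atf3 is also among the dissociation genes above.

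The mix of cells differed greatly between the libraries. Of the saline cells 71.1% were alveolar fibroblast-like, against 3.31% after bleomycin; inflammatory fibroblast-like cells were 0.978% and 42.6%, and fibrotic fibroblast-like cells, whose leading genes were Spp1, the immunoglobulin gene Iglc1 and Cthrc1, 0.133% and 24.6%. Such shares describe 1 library each, and the clusters were built on genes that differ between the libraries. They also depended on the clustering. At a finer resolution, 1 in place of 0.5, a further cluster of 52 saline and 1928 bleomycin cells was named alveolar fibroblast-like. The inflammatory fibroblast-like class then held 2237 bleomycin cells, where it held 4258 here. When the bleomycin clusters were weighted as in saline, 0 members passed the size rule, beside 1.495% of all genes called higher and 0.747% lower, and 28 of 40 ratios were above 1. Under that weighting Serpinh1 had a ratio of 0.905, Fkbp10 1.53, P3h1 1.39 and Kdelr3 1.41, and the median of the collagen helpers was 0.112 on the log2 scale, beside 0.53 without it. The collagen genes were also nearer to 1 under it, with Col1a1 at 1.71, Col1a2 at 1.48 and Col3a1 at 1.64. Manf kept a ratio of 1.62, the highest of the 40 there. That weighting gives the fibrotic fibroblast-like cells the share they had in saline, 11 cells.

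Within classes that both libraries held in sufficient number, few members passed the size rule. In alveolar fibroblast-like cells 0 of 40 members were called higher and 0 lower, beside 1.51% and 0.738% of all tested genes. In adventitial fibroblast-like cells the counts were 0 and 0, beside 3.14% and 3.23%. In inflammatory fibroblast-like cells they were 0 and 0, beside 3.92% and 2.41%, with 81 saline cells. In smooth muscle-like cells 1 member was called higher, P3h1, beside 3.89% of genes, and 0 lower, beside 2.2%. In peribronchial fibroblast-like cells, with Cnn1, Aspn, Hhip and Actg2 among their leading genes, 6 were called higher, beside 6.36%, and 0 lower, beside 6.5%. The 6 were P3h1 (ratio 3.36), Fkbp10 (2.59), Manf (2.05), Sec61b (2.17), Sec23a (2.16) and Kdelr3 (5.46). Cnn1 and Actg2 are in the smooth muscle marker list. At resolution 1 a cluster led by Cnn1, of 75 saline and 164 bleomycin cells, was named smooth muscle. The peribronchial fibroblast-like class then held 325 saline and 400 bleomycin cells.

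Col1a1 itself differed within these classes, and the members' ratios followed it only in part. In peribronchial fibroblast-like cells Col1a1 had 415.1 CPM after saline and 2575 CPM after bleomycin, a ratio of 6.20, and Serpinh1 had 442.5 and 871.5 CPM, a ratio of 1.97 (1.82 to 2.13). Col1a2 had a ratio of 5.08 there and Col3a1 one of 2.49. The median ratio of the helpers there was 1.66 and that of the general chaperones 1.21. The saline cells of this class were shallow, with a median of 3343 UMIs beside 8845 in bleomycin; the part of depth in these ratios was not tested. In adventitial fibroblast-like cells Col1a1 had 2323 and 5491 CPM, a ratio of 2.36, while Serpinh1 stood at 1078 and 1091 CPM, a ratio of 1.01 (0.985 to 1.04). Col1a2 had a ratio of 1.91 and Col3a1 one of 2.60 in these cells. Fkbp10 (1.68), P3h1 (1.60) and Kdelr3 (1.48) were above 1 in those same cells with intervals clear of it. In alveolar fibroblast-like cells, where Col1a1 had a ratio of 1.22, Serpinh1 had 552.0 and 468.8 CPM, a ratio of 0.849 (0.798 to 0.903). In inflammatory fibroblast-like cells, where Col1a1 had a ratio of 1.05, it had 1057 and 857.2 CPM, a ratio of 0.811 (0.763 to 0.863).

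Across the 5 classes, P4hb, Ppib, P3h1 and Fkbp10 of the collagen helpers had ratios above 1 in all of them, and so did Canx, Hyou1, Fkbp9, Manf, Sec61a1, Ssr3, Mia3, Kdelr3 and Lman1. The interval lay above 1 in all 5 classes for P4hb, Manf and Ssr3 only, in 4 for P3h1, Fkbp10, Canx, Fkbp9 and Kdelr3, in 3 for Ppib, Sec61a1 and Lman1, in 2 for Mia3 and in 1 for Hyou1. Atf4 was the single member below 1 in all 5, from 0.592 in peribronchial fibroblast-like to 0.932 in smooth muscle-like cells, where its interval reached 1.02. Hspa5 lay between 0.879 and 1.06, and Mia3 between 1.14 and 1.29.

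**Figure D2:**
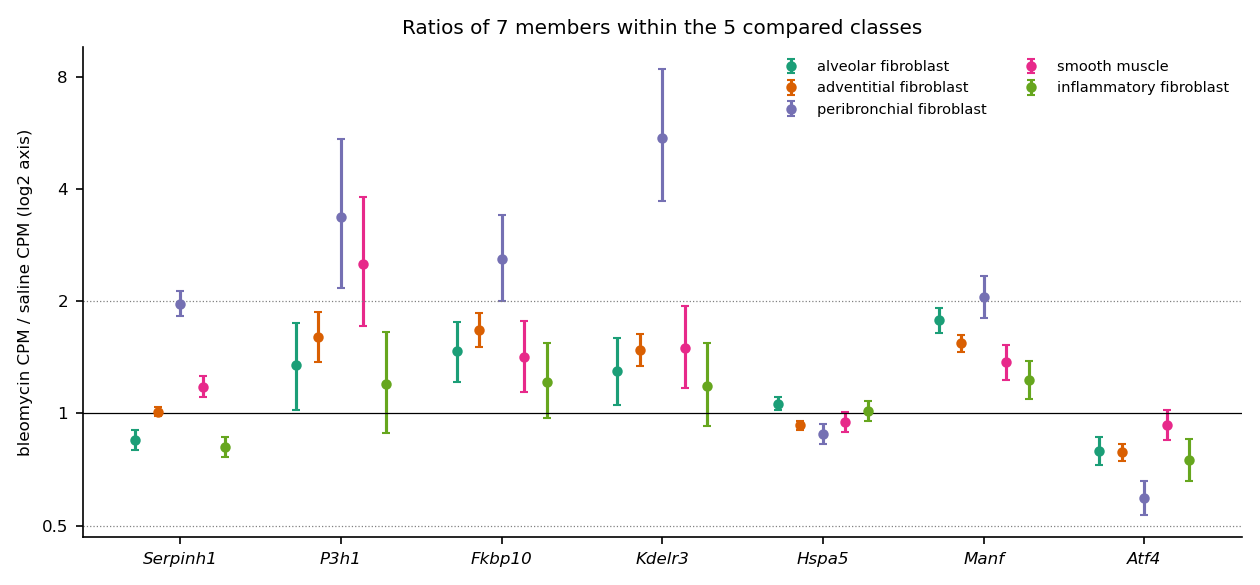
Ratio of bleomycin to saline CPM of 7 members within the 5 classes compared, with 95% counting intervals on a log2 axis. Peribronchial fibroblast-like cells have the highest ratios for Serpinh1, P3h1, Fkbp10, Kdelr3 and Manf, Hspa5 stays between 0.879 and 1.06, and Atf4 lies below 1 in every class.

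The class with the most Col1a1, the fibrotic fibroblast-like cells of the bleomycin library, had no counterpart of sufficient number in saline. Over the 12 combinations of mesenchymal class and library with at least 50 cells, these cells had the highest level of Serpinh1 (1128 CPM), P4hb (320.5 CPM), Ppib (1077 CPM), P3h1 (76.0 CPM), Fkbp10 (153.7 CPM), Sec61a1 (137.6 CPM), Sec61b (980.1 CPM), Ssr3 (271.8 CPM), Sec23a (48.8 CPM), Kdelr3 (115.9 CPM) and Lman1 (218.8 CPM). For Ssr3, Sec23a and Lman1 the next combination had an overlapping interval. Adventitial fibroblast-like cells headed the order for Crtap, Fkbp14, Calr, Canx, Dnajc3, Hyou1, Ddit3, Tram1, Mia3 and Creb3l1 in bleomycin and for Hspa5, Hsp90b1, P3h3, Atf4 and Sec24d in saline, but of these 15 only Calr had an interval clear of the next combination. Hspa5 was at 726.6 CPM in the fibrotic fibroblast-like cells, below the 1098 CPM of adventitial saline and the 986.8 CPM of alveolar saline cells. Smooth muscle-like saline cells were the lowest for 22 of the 40 members. Most neighbours in these orders could not be separated: intervals overlapped for 7 of 11 neighbouring pairs for Serpinh1, 6 of 11 for Kdelr3 and 8 of 11 for Hspa5.

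The widest ranges over the 12 combinations belonged to Kdelr3 and P3h1. Kdelr3 ran from 16.4 CPM in peribronchial saline to 115.9 CPM in fibrotic bleomycin cells, a 7.05-fold range, and P3h1 from 11.04 CPM in smooth muscle-like saline to 76.0 CPM, a 6.88-fold range. Creb3l1 ranged 4.92-fold, Fkbp10 4.20-fold and Sec61b 4.01-fold, while Hspa5 ranged 1.89-fold and Canx 1.72-fold. Over these combinations, Spearman's rank correlation with Col1a1 CPM had a median of 0.738 over the members, beside -0.035 over all tested genes, 19.0% of which were above 0.5. It was 0.860 at the median of the collagen helpers, 0.608 for the general chaperones and 0.168 for the stress genes. Kdelr3 had the highest value, 0.986, then P4hb and Ssr3 with 0.972 each and P3h1 and Fkbp10 with 0.965 each. Hspa5 had 0.063, P3h3 0.126, Xbp1 0.126 and Atf4 -0.53. The 12 points share 2 libraries, in which Col1a1 and depth also differ, so these values are descriptions.

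**Figure D3:**
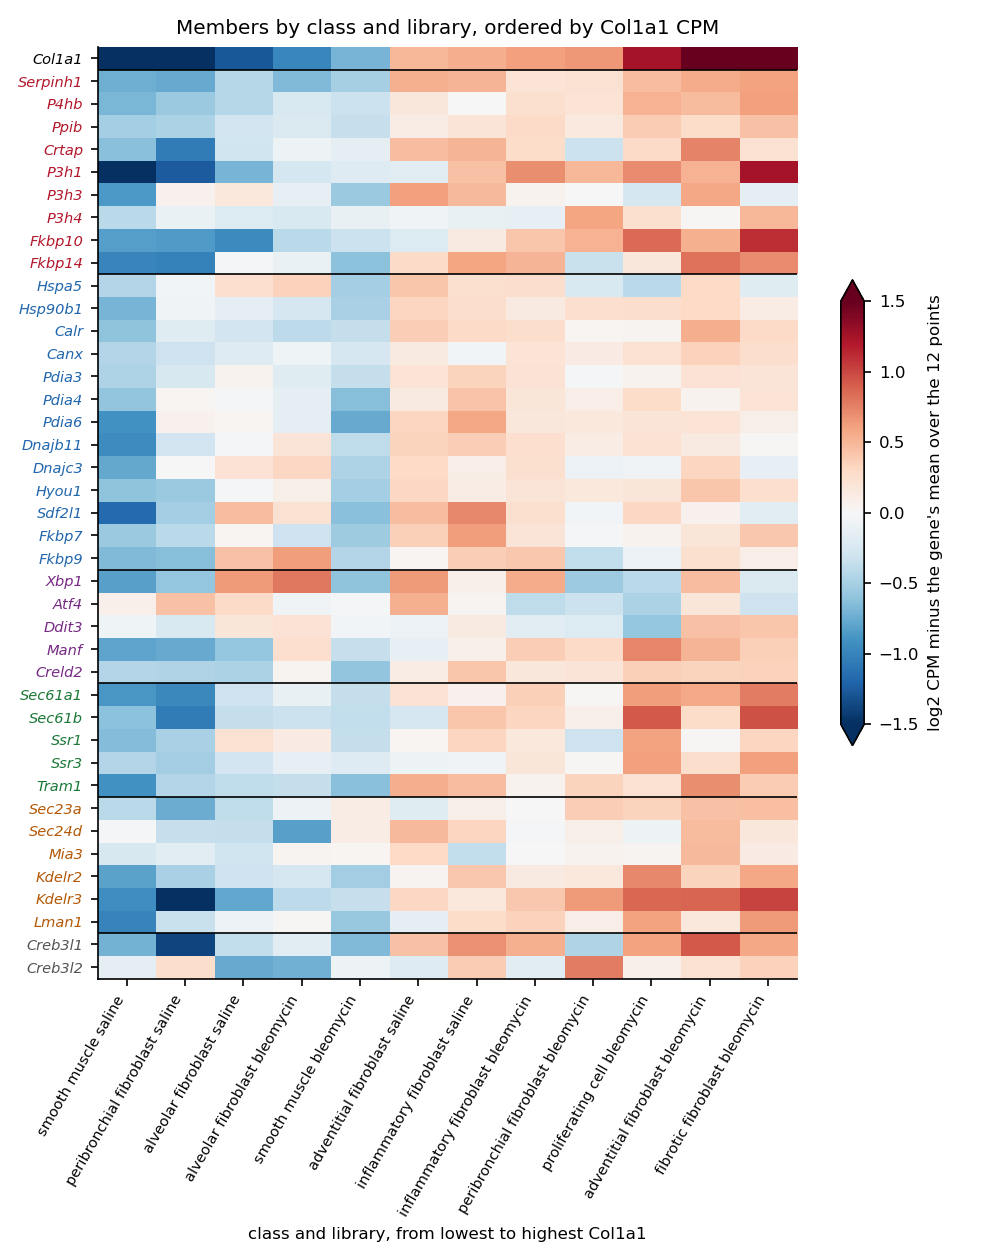
Colour gives log2 CPM of Col1a1 and the 40 members minus each gene's mean over 12 combinations of class and library (columns, ordered from lowest to highest Col1a1 CPM); rows are grouped by role. Kdelr3, P3h1, Fkbp10 and P4hb go from blue to red along the columns, with rank correlations of 0.986, 0.965, 0.965 and 0.972, while Hspa5 (0.063) and Atf4 (-0.53) do not.

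Alveolar epithelial-like cells, which are not known as a source of fibrillar collagen, gave a comparison level. Scgb1a1, from the airway epithelial marker list, was first among their leading genes, before Sftpc and Ager. Free RNA, doublets and the cells' own expression were not told apart in these epithelial-like cells. In them Col1a1 was at 17.5 CPM after saline and 166.3 CPM after bleomycin. Serpinh1 was at 205.3 and 257.0 CPM there, Fkbp10 at 2.91 and 15.7 CPM, Kdelr3 at 2.91 and 13.7 CPM and Creb3l1 at 1.46 and 11.1 CPM. Hspa5 was at 554.8 and 632.1 CPM in those epithelial-like cells, and Ppib at 556.3 and 629.5 CPM. Fkbp10, Kdelr3 and Creb3l1 were thus far below their mesenchymal levels there, on 1 or 2 UMIs each in saline, and Ppib and Hspa5 were not.

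To set the members against collagen output cell by cell, each mesenchymal cell was thinned to 2000 UMIs and placed by its Col1a1 UMIs, at 0, 1 to 2, 3 to 5, 6 to 10, 11 to 20 or above 20. Thinning left out 144 saline and 153 bleomycin cells that were shallower. In saline, 34.2% of cells had 0 Col1a1 UMIs and 79 cells had 11 to 20; in bleomycin, 8.85% had 0 and 612 cells had above 20. At this depth 96.4% of saline and 86.7% of bleomycin epithelial-like cells had 0.

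As a sum, the collagen helpers were higher in each successive Col1a1 level in both libraries. Their summed level, most of it from Serpinh1 and Ppib, was 1414 CPM at 0 and 3576 CPM at 11 to 20 UMIs in saline, a ratio of 2.53 (2.32 to 2.755). In bleomycin it was 1536 CPM at 0 and 3757 CPM above 20, a ratio of 2.45 (2.33 to 2.57). The general chaperones had corresponding ratios of 1.36 (1.26 to 1.47) and 1.26 (1.21 to 1.31), and the stress genes 1.15 (0.960 to 1.36) and 0.940 (0.864 to 1.02). The translocon had 1.58 in saline and 2.13 in bleomycin, export and retrieval 1.61 and 2.18, and the transcription factors 2.04 and 2.69. For the transcription factors the order of the libraries was not stable: with cells placed by Col3a1 they had 3.74 in saline and 1.4 in bleomycin, and at 5000 UMIs per cell 3.20 and 2.41. Both alternatives kept the same UMI cut-offs, so their levels span other ranges of collagen. Over all genes of at least 10 CPM the median ratio of the highest to the lowest level came to 0.896 for saline and 0.930 for bleomycin, and 19.7% and 14.2% of genes reached 1.5-fold, beside 20 and 24 of the 40 members.

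**Figure D4:**
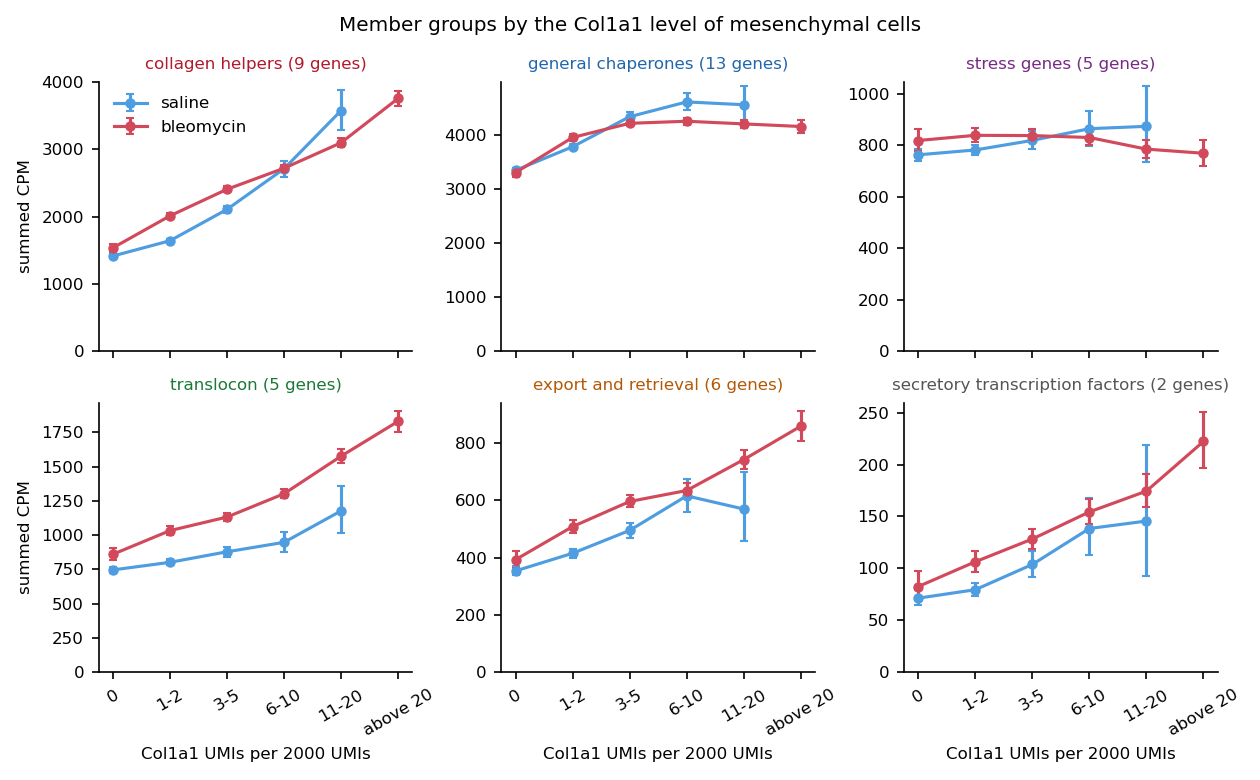
Summed CPM of each member group in mesenchymal cells (y axes, from 0) against Col1a1 UMIs of cells thinned to 2000 UMIs, for both libraries, with 95% counting intervals; saline has too few cells above 20 to be read. Collagen helpers climb from 1414 to 3576 CPM in saline and from 1536 to 3757 CPM in bleomycin, while general chaperones change by 1.36 and 1.26 and stress genes by 1.15 and 0.940.

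Serpinh1 was at 455.6 CPM in saline cells with 0 Col1a1 UMIs and at 1576 CPM in those with 11 to 20, a ratio of 3.46 (3.02 to 3.94). In bleomycin it was at 479.2 CPM at 0 and 1547 CPM above 20, a ratio of 3.23 (2.97 to 3.51). Creb3l1 had the largest ratio of highest to lowest level, 4.49 (2.49 to 7.58) in saline and 4.94 (3.44 to 7.24) in bleomycin. Fkbp10 had 2.89 (1.55 to 4.99) and 4.25 (3.28 to 5.55), P3h1 4.06 and 3.01, Crtap 4.23 and 2.88, and P4hb 2.72 and 2.94. Genes outside the helpers reached like values, with Tram1 of the translocon at 3.77 and 2.435 and Sec23a of the COPII coat at 3.43 and 2.75. Not every helper did: Ppib had 1.97 and 1.67. In saline the intervals of P3h3 (1.06, 0.575 to 1.80), P3h4 (0.728, 0.234 to 1.72) and Fkbp14 (1.90, 0.682 to 4.27) spanned 1. In bleomycin P3h3 had 2.04, P3h4 2.29 and Fkbp14 2.35, with intervals above 1. Among the general chaperones, Hsp90b1 had 1.92 and 1.37, Calr 1.74 and 1.71 and Fkbp7 1.36 and 2.08. Hspa5 had 1.14 (0.972 to 1.34) and 0.921 (0.847 to 1.001), both with intervals that reach 1. Mia3 had 0.809 (0.294 to 1.78) in saline and 1.42 (1.07 to 1.89) in bleomycin.

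Ddit3 ran the other way in bleomycin, from 125.3 CPM at 0 to 63.7 CPM above 20, a ratio of 0.509 (0.387 to 0.662), and this rested on a small group of cells. A cluster found at a finer resolution and led by immunoglobulin genes held 36 saline and 270 bleomycin cells, 225 of the latter among the fibrotic fibroblast-like cells. Its bleomycin cells had 315.6 CPM of Ddit3, 1218 CPM of Col1a1 and 594.4 CPM of Serpinh1, beside 65.4, 6089 and 1160 CPM in the other fibrotic fibroblast-like cells. Without that cluster, Ddit3 was at 61.7 CPM at 0 and 63.9 CPM above 20, a ratio of 1.04 (0.758 to 1.42). The ratio of Serpinh1 was 3.18 and that of Creb3l1 5.07 without it.

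Averaged over Col1a1 levels, the summed general chaperones were close between libraries and the other groups less so. With each level weighted by its saline cells, the ratio of bleomycin to saline CPM was 1.145 for the collagen helpers, where it was 1.45 over all thinned cells, and 1.005 for the general chaperones. It was 1.06 for the stress genes, 1.25 for the translocon, 1.175 for export and retrieval and 1.245 for the transcription factors. Level by level the chaperones' ratio varied, from 1.045 (1.025 to 1.066) at 1 to 2 UMIs to 0.922 (0.889 to 0.957) at 6 to 10. Of the saline cells 34.2% had 0 UMIs and 43.3% had 1 to 2, so these levels carried most of the weight. Among members the weighted ratio was 1.06 for Serpinh1, 1.015 for Crtap and 0.999 for P3h4, but 1.95 for P3h1, 1.81 for Fkbp10, 1.70 for Manf, 1.47 for Sec61a1, 1.40 for Kdelr3 and 1.38 for Sec61b. P3h3 had 0.762 and Atf4 0.690. At the highest level that both libraries reached, 11 to 20 UMIs, Serpinh1 was at 1576 CPM after saline and 1228 CPM after bleomycin, a ratio of 0.779 (0.685 to 0.890). Of the 79 saline cells of that level 71 were adventitial fibroblast-like, and within that class the helpers had a ratio of 0.776 (0.700 to 0.862) there.

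Within single classes the helpers' ratio of highest to lowest level had an interval above 1 in all 6 classes of the bleomycin library and in 3 of 5 in saline. The highest level read differed between libraries, so the saline and bleomycin ratios of a class do not span the same Col1a1 range. For alveolar fibroblast-like cells it was 6 to 10 UMIs in saline and 3 to 5 in bleomycin. For adventitial fibroblast-like cells it was 11 to 20 and above 20, and for peribronchial ones 3 to 5 and 11 to 20. In smooth muscle-like saline cells the helpers' ratio was 1.12 (0.983 to 1.28) and in inflammatory fibroblast-like saline cells 1.16 (0.866 to 1.56), over fewer Col1a1 levels. In alveolar fibroblast-like cells it was 1.67 (1.497 to 1.86) in saline and 1.25 (1.04 to 1.49) in bleomycin, and the chaperones had 1.29 and 1.08. In fibrotic fibroblast-like bleomycin cells they were at 1576 CPM at 0 and 3830 CPM above 20 Col1a1 UMIs, a ratio of 2.43 (2.16 to 2.74), and the chaperones had 1.15. Without the immunoglobulin-led cells those ratios were 1.88 (1.59 to 2.24) and 1.02 (0.901 to 1.16), with 35 cells left at 0. Hspa5 had 0.796 (0.669 to 0.952) in this class, and 0.951 (0.711 to 1.30) without the immunoglobulin-led cells. In adventitial fibroblast-like cells the helpers had 1.71 (1.5 to 1.95) in saline and 2.28 (1.79 to 2.96) in bleomycin, and the chaperones 1.03 and 0.960. In peribronchial fibroblast-like cells both groups climbed: the helpers had 1.80 in saline and 2.25 (1.93 to 2.63) in bleomycin and the chaperones 1.395 in saline and 1.94 (1.72 to 2.18) in bleomycin, with Hspa5 at 1.425 (1.07 to 1.90). In smooth muscle-like bleomycin cells the helpers had 1.95 and the chaperones 1.48, with Hspa5 at 1.775 (1.225 to 2.52). In alveolar, adventitial and inflammatory fibroblast-like bleomycin cells the interval of Hspa5 spanned 1. Inflammatory fibroblast-like bleomycin cells had a helper ratio of 1.38 (1.15 to 1.65), with 27 cells in the highest level, and a chaperone ratio of 1.24. Per-cell rank correlations with Col1a1 were weak, at 0.250 in saline and 0.328 in bleomycin for Serpinh1, beside a 95th percentile over genes of 0.0660 and 0.0698. The median over the helpers was 0.0521 in saline, under that percentile and under the chaperones' 0.0577, and 0.0812 in bleomycin, where the chaperones had 0.0353.

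**Figure D5:**
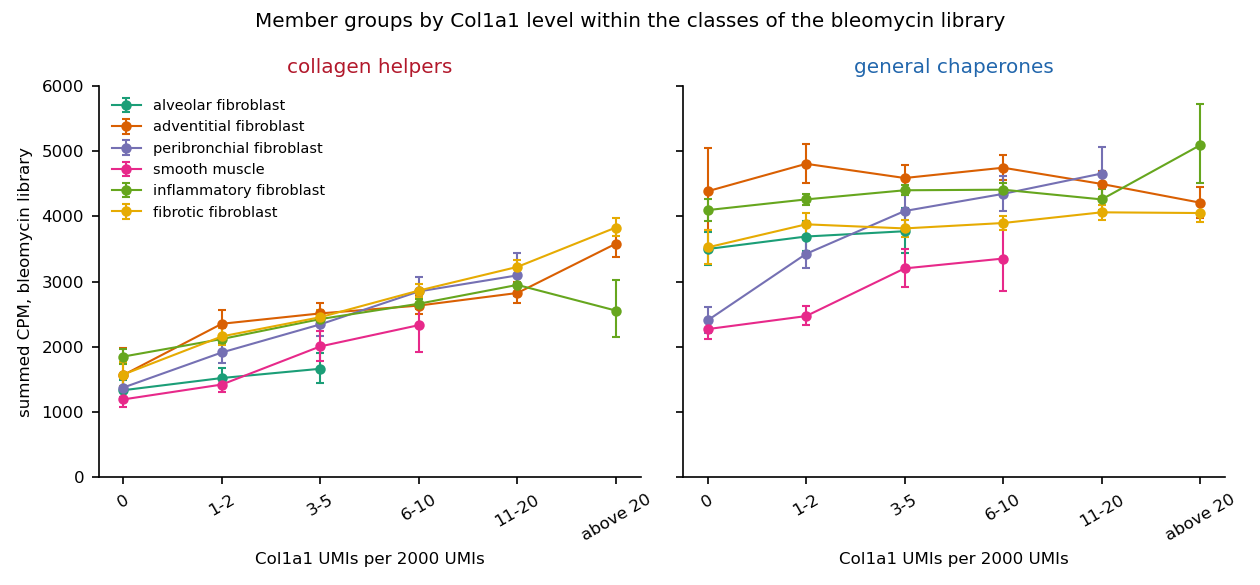
Summed CPM of collagen helpers (left) and general chaperones (right) against Col1a1 UMIs per 2000 within 6 classes of the bleomycin library, with 95% counting intervals and points of at least 20 cells. Helpers are higher at the highest than at the lowest level in every class, for example from 1576 to 3830 CPM in fibrotic fibroblast-like cells, and chaperones climb mainly in peribronchial fibroblast-like cells, where their ratio was 1.94, and smooth muscle-like cells, where it was 1.48.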

How the data were processed

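Unique molecular identifier (UMI) counts per gene and cell were made by the authors with Cell Ranger 6.1.2 against mm10, per the submitters' processing notes, and deposited as 1 matrix of counts per library. The members and lists were chosen with earlier results of these data known. Cells with at least 500 genes and at most 10% mitochondrial UMIs were kept. Scrublet, with 7% expected, marked 66 saline doublets (0.790%), which were removed, and 0 in bleomycin, where it did not work; doublets there remain. Cells were clustered with scanpy 1.11.5 (2000 variable genes, 30 components, 15 neighbours, Leiden through igraph 0.11.9, resolution 0.5) into 10 clusters, named from 19 marker lists as 9 classes; names are therefore rebuilt, not the authors'. Only classes with at least 50 cells per cluster in each library were compared. Counts were summed and given as CPM with exact Poisson intervals, and ratios with exact conditional binomial intervals (scipy 1.17.1), all 95%. Every member was described, with full values for the helpers, leading chaperones, stress genes, transcription factors, main export genes and called members. Levels per cell used cells thinned to 2000 UMIs, and Col1a1 levels with under 20 cells were not read. Of these steps, only the size rule for calls was tested on simulated counts. Alternatives covered the fold, the filters, the scaling, the cells used, the clustering, the thinning depth and the collagen gene.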

Additional observations from a re-analysis of the deposited data

Results flagged for a closer look

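Serpinh1, the HSP47 gene, had ratios of bleomycin to saline CPM on opposite sides of 1 in different classes. The ratio was 1.97 (1.82 to 2.13) in peribronchial fibroblast-like cells and 0.811 (0.763 to 0.863) in inflammatory fibroblast-like cells, a quotient of 2.43. Tram1, a translocon gene, had 1.72 (1.395 to 2.13) and 0.752 (0.628 to 0.908) in the same classes, a quotient of 2.28, and Creb3l2, a secretory transcription factor, 1.42 (1.18 to 1.71) and 0.681 (0.555 to 0.846), a quotient of 2.08. Sdf2l1, an ER chaperone partner, had 1.45 (1.04 to 2.06) in smooth muscle-like cells and 0.716 (0.558 to 0.9345) in inflammatory fibroblast-like cells, a quotient of 2.03. For each gene the classes with its highest and lowest ratio are shown, so the quotients are extremes. Serpinh1 also had 1.18 (1.10 to 1.26) in smooth muscle-like and 0.849 (0.798 to 0.903) in alveolar fibroblast-like cells. These differences between classes were not tested, since each class has 1 library per group. The inflammatory class held 81 saline cells, and the peribronchial class had a median of 3343 UMIs in saline and 8845 in bleomycin.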

How the results depend on the processing

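No paired analysis was possible because each group has 1 library. P3h1, Fkbp10 and Kdelr3 were the members called higher in every alternative run over mesenchymal cells except 3. A fold of 1.5 called 10 higher (beside 12.3% of genes) and 1 lower, a fold of 3 called 0 (2.95%), and weighting the bleomycin clusters as in saline called 0 (1.495%). That weighting gave a median log2 ratio of 0.112 for the helpers (0.529 without it) and -0.0528 for the chaperones (0.123), and 66.7% of all calls were higher under it, beside 48.8%; a fold of 3 gave 59.1%. The mean of per-cell CPM gave 0.494 for the helpers. At a fold of 1.5 the members called higher were 1 in alveolar (5.46% of genes), 4 in adventitial (7.77%), 17 in peribronchial (14.1%, with 1 lower) and 2 in smooth muscle-like cells (10.4%). At resolution 1, 3 were called in alveolar fibroblast-like cells (3.79%), whose cells then lay in different clusters: 1 cluster held 52 saline and 1928 bleomycin cells, and the other two 2811 and 2824 saline and 171 and 86 bleomycin cells. There the inflammatory class was not compared for lack of saline cells. With a stricter cell filter, or without the highest doublet scores, no cluster took the fibrotic fibroblast-like name. Spp1 and Cthrc1 then led an unnamed cluster of 2757 bleomycin cells and one named proliferating of 1932, respectively. For the helpers, the ratio of highest to lowest level was 1.97 in saline and 2.01 in bleomycin with Col3a1 in place of Col1a1, and 2.74 in bleomycin with the sum of Col1a1, Col1a2 and Col3a1. Their ratio at equal level was 1.09 at 5000 UMIs, 1.23 with Col3a1 and 1.07 with the sum. For the chaperones, the saline ratio of highest to lowest level was 1.49 at 5000 UMIs and 1.57 with the sum; the bleomycin one was 1.53 at 5000 UMIs, 1.42 with Col3a1, 1.74 with the sum and 1.31 with collagen genes left out of the total. Their ratio at equal level was 0.951, 0.974 and 0.921 at 5000 UMIs, with Col3a1 and with the sum. The levels kept the same UMI cut-offs at 5000 UMIs, with Col3a1 and with the sum, so they span other ranges of collagen there. The cause of these shifts was not tested. The cells without immunoglobulin-led ones were an alternative chosen after seeing the data.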
